A study of Mus musculus with 10 samples.

Results

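The nuclear genes for the enzymes of oxidative phosphorylation were followed in RNA from the brains of mice treated with a transcription inhibitor. Members were taken by gene name: the Nduf, Cox4 to Cox8, Uqcr and Atp5 families and Sdha, Sdhb, Sdhc and Sdhd, without names that end as pseudogenes or antisense transcripts. The rule matched 93 names, of which 3 pseudogenes were left out, so that 90 of the 21230 genes in the table were members. They comprised 36 genes of complex I, 4 of complex II, 8 of complex III, 19 of complex IV, 15 of complex V (ATP synthase) and 8 complex I assembly factors. The samples were punches of striatum from 10 BACHD mice, a model of Huntington's disease on the FVB/N background that carries a human mutant HTT gene in a bacterial artificial chromosome beside its own mouse Htt. 5 mice were given SPI-24, an inhibitor of the contact between the elongation factor Spt5 and RNA polymerase II, from a pump under the skin for 8 weeks, from an age of about 3 months. The other 5 were given the vehicle, DMSO mixed with polyethylene glycol, in the same way. All 10 mice carried the transgene, no wild-type library was included, and the labels number the libraries as biological replicates.

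Oxidative phosphorylation couples the oxidation of NADH and succinate to the synthesis of ATP in the inner membrane of mitochondria. Complexes I and II pass electrons to ubiquinone, complex III passes them on to cytochrome c, complex IV reduces oxygen with them, and complex V uses the proton gradient built by complexes I, III and IV to make ATP. A few central subunits of complexes I, III, IV and V are encoded by mitochondrial DNA and all the others by the nucleus, so that 2 genomes supply each of these enzymes. Neurons draw most of their ATP from this pathway, and lower activity of complexes II and III in the striatum is a known feature of Huntington's disease.

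The unit throughout is the normalized count, the number of uniquely mapped reads of a gene divided by a size factor for each library. Between 5478283 and 46923225 reads per library were assigned to genes, an 8.57-fold range, with DMSO replicate 3, SPI-24 replicate 2 and SPI-24 replicate 5 the shallowest. Although all libraries were labelled striatum, the defining markers of its medium spiny neurons differed greatly between them. Drd1, the D1 dopamine receptor, reached 537 to 2525 in 4 libraries (DMSO replicates 1 and 4, SPI-24 replicates 2 and 5) and 0 to 78.8 in the other 6. The mean log2 level of 14 such markers spanned 6.85 between libraries, and that of 10 choroid plexus markers 5.74. Markers of thalamic neurons also varied, such as Prkcd at 266 to 10295. The mean deviations of 10 such markers (log2) were -3.45, 0.45, 1.22, 0.39 and -1.14 in DMSO replicates 1 to 5. In SPI-24 replicates 1 to 5 they were 0.88, 0.56, 1.35, 1.01 and -1.28. They were thus lowest in DMSO replicate 1 and SPI-24 replicate 5, where Drd1 was highest. Which regions each punch held was not tested. Because the samples were bulk tissue, fewer cells of a type and less RNA per cell could not be told apart.

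None of the nuclear oxidative phosphorylation genes tested passed the test for a difference between SPI-24 and DMSO. Of the 90 members, 89 had a mean normalized count of at least 10 and were tested by limma on log2(normalized count + 1) together with the other genes, 15871 in all. None of the 89 passed an adjusted p of 0.05, where 0% of all genes passed, and the smallest adjusted p of a member was 0.999. At an unadjusted p under 0.05 there were also 0 members, against 354 of all genes (2.23%). The mean log2 level was higher in SPI-24 for 45 members and lower for 44, against 50.2% higher among all genes. The median log2 fold change of the members was 0.03, and that of all genes was 0.00. In no member were the 5 SPI-24 values all above or all below the 5 DMSO values, which occurred for 0.517% of all genes. On the recovered reads, edgeR and DESeq2 also called 0 members and gave 0 members an unadjusted p under 0.05. By DESeq2 at a fold of at least 2, the paper lists a small set of genes, mostly lower, as differentially expressed after this treatment. No member is in that list. For this pump treatment the paper reports very little SPI-24 left in brain, no detectable change in Htt protein, improved motor tests and no improvement in anxiety. How exposure bears on the values here was not tested.

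These genes were measured more tightly than most. Over the 89 members, the median SD within groups was 0.28 on the log2 scale, against 0.72 for all genes tested. Part of this gap goes with level, since 74 of the 89 members had a mean of at least 500 normalized counts. Among genes with a mean of at least 500 the median SD was 0.27 for members and 0.38 for all. This is a floor and not a match on level, and the part of level above it was not tested. The 95% interval of the fold change lay inside a 2-fold change in either direction for 72 of these 74 members (97.3%), against 83.4% of all 6272 genes above that floor. It lay inside a 1.5-fold change for 49 of the 74 members (66.2%), against 32.1%. For the 15 members below a mean of 500, only 1 had an interval inside 2-fold, and the median half-width of the interval was 2.83 on the log2 scale. The plot of fold changes shows these 2 classes of members apart.

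**Figure D1:**
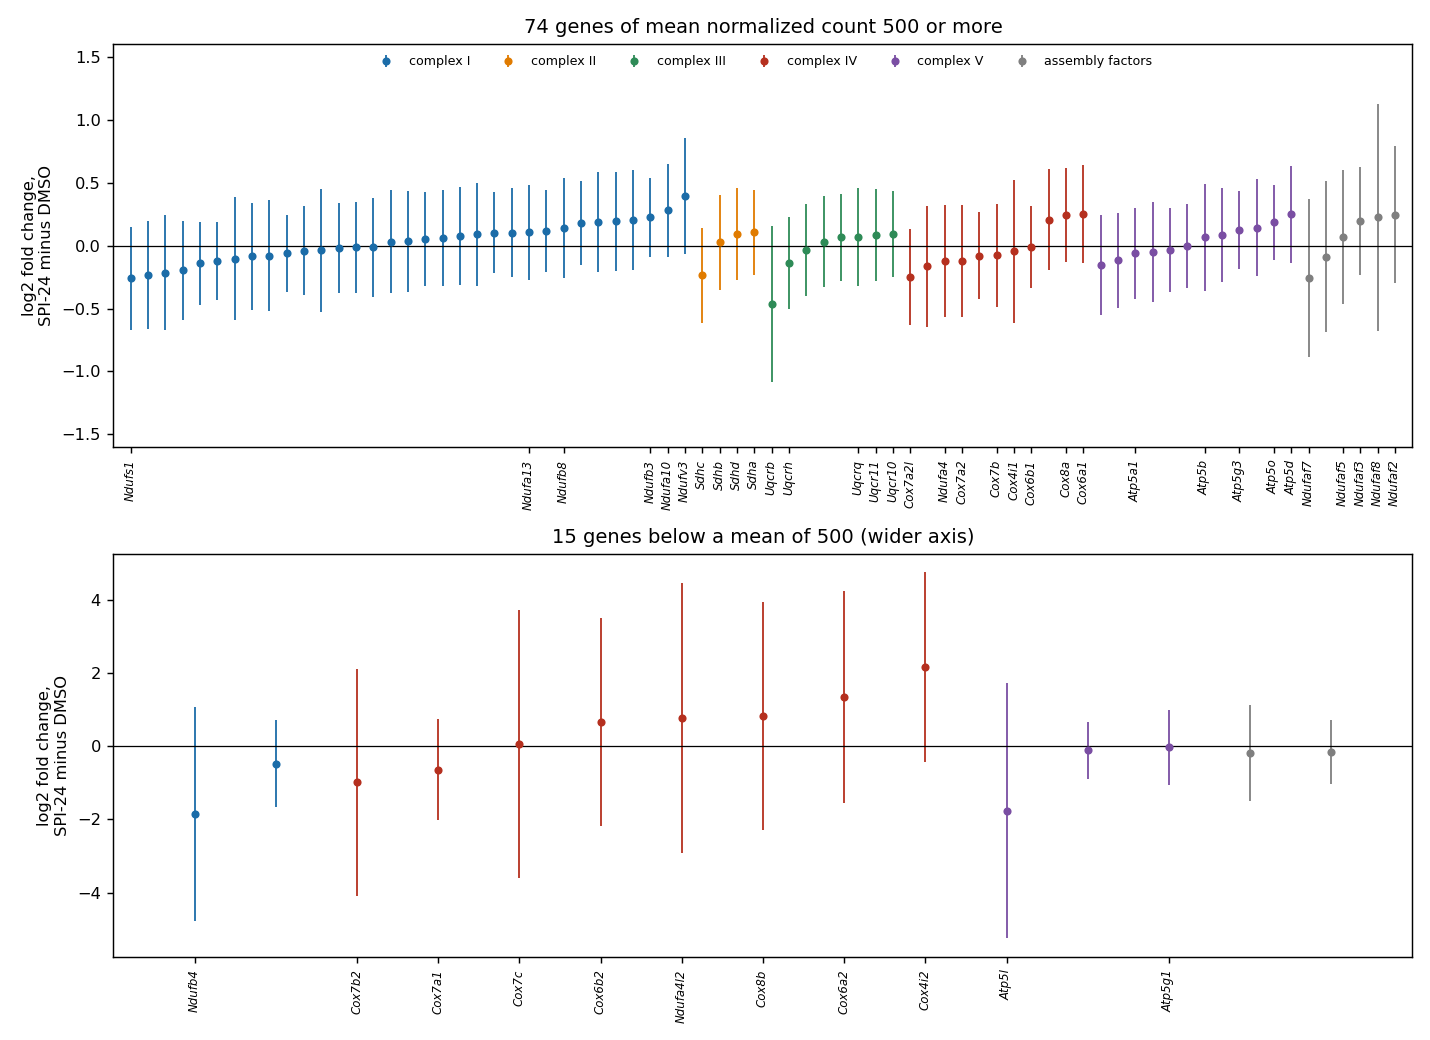
Log2 fold change of SPI-24 minus DMSO for each of the 89 members tested (points) with its 95% interval from limma (lines, 5 libraries per group), coloured by complex, with names under the members singled out by rank or isoform family. In the upper panel, 74 abundant members lie between -0.46 and 0.39, and in the lower panel, with a wider axis, 15 scarce members lie between -1.86 and 2.16.

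**Figure D2:**
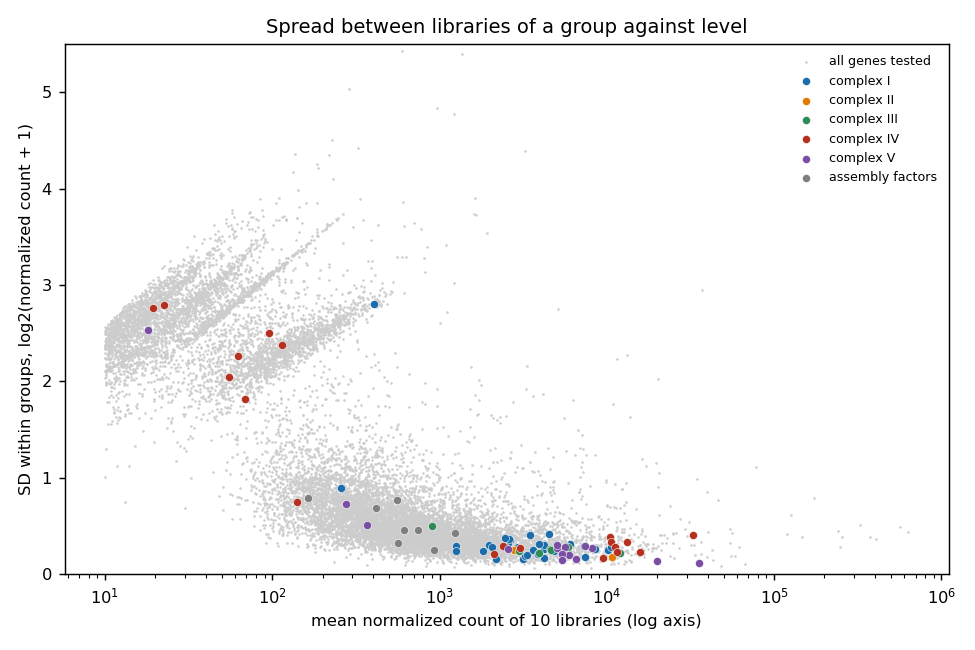
SD within groups of log2(normalized count + 1) on the vertical axis against the mean normalized count of 10 libraries on a log axis, for all 15871 genes tested (grey) and the 89 members (coloured by complex). Members of mean 500 or more have a median SD of 0.27, and scarce members with values of 0 form the upper left group.

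Complex I takes electrons from NADH and is the largest of the 5 enzymes. Of its 35 members tested, 18 had a higher mean log2 level in SPI-24 and 17 a lower one, with a median log2 fold change of 0.03. The member with the smallest p was Ndufv3 (chromosome 17, 31520115 to 31531331), an accessory subunit of the arm that binds NADH. Ndufv3 was at 2853, 2695, 1446, 1787 and 1863 normalized counts in DMSO replicates 1 to 5 and at 2064, 3815, 2699, 2435 and 2808 in SPI-24 replicates 1 to 5. The ranges overlapped, with DMSO replicate 1 above 4 of the 5 SPI-24 values and DMSO replicate 2 above 2 of them. Ndufv3 had a log2 fold change of 0.39 (95% interval -0.07 to 0.86, limma unadjusted p = 0.0887). Ndufa10, another accessory subunit, was at 2806, 4759, 4963, 3778 and 3113 with DMSO and at 4566, 4964, 4539.8, 4477 and 4439 with SPI-24. Its SPI-24 libraries stood close together near the upper end of the wider DMSO range. Ndufa10 had a log2 fold change of 0.28 (95% interval -0.09 to 0.65, limma unadjusted p = 0.129).

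Ndufb3, an accessory subunit of the membrane arm, ranged from 1805 to 2138 with DMSO and from 2019 to 2933 with SPI-24. Ndufb3 had a log2 fold change of 0.22 (95% interval -0.09 to 0.54, limma unadjusted p = 0.154). Ndufs1, the largest core subunit and a carrier of iron-sulfur clusters, ranged from 3549.9 to 5564 with DMSO and from 2771 to 4962 with SPI-24, with a lower mean in SPI-24. Ndufs1 had a log2 fold change of -0.26 (95% interval -0.67 to 0.15, limma unadjusted p = 0.192). The 2 members of highest count, the accessory subunits Ndufb8 and Ndufa13, also overlapped between the groups. Ndufb8 had means of 10148 ± 2549 with DMSO and 10916 ± 797 with SPI-24 (SD, n = 5), and Ndufa13 of 9800.0 ± 1590.0 with DMSO and 10531 ± 1709 with SPI-24 (SD, n = 5).

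Complex II, or succinate dehydrogenase, is encoded by the nucleus alone and also works in the citrate cycle. Its flavoprotein Sdha was at 8864, 11664, 9707, 9279 and 12125 normalized counts in DMSO replicates 1 to 5 and at 12813, 10359, 10892, 9867 and 11364 in SPI-24 replicates 1 to 5. Each group had low and high libraries, and the groups overlapped over most of their ranges. Sdha had a log2 fold change of 0.10 (95% interval -0.23 to 0.44, limma unadjusted p = 0.518). The iron-sulfur subunit Sdhb had means of 5528 ± 1087 with DMSO and 5606 ± 969 with SPI-24 (SD, n = 5). The membrane anchor Sdhc had the smallest p of the 4, with 3219, 3594, 3397, 3230.1 and 2778 in DMSO and 2464, 2011, 2861, 2786 and 3947 in SPI-24. All but 1 of its SPI-24 values lay below 4 of the 5 DMSO values, while SPI-24 replicate 5 was the highest of the 10. Sdhc had a log2 fold change of -0.24 (95% interval -0.61 to 0.14, limma unadjusted p = 0.203). Without SPI-24 replicate 5, its unadjusted p was 0.037 and its adjusted p 0.972 by limma. The other anchor, Sdhd, had means of 2691 ± 261 with DMSO and 2913 ± 682 with SPI-24 (SD, n = 5).

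Complex III passes electrons from ubiquinol to cytochrome c. Of its 8 members, 5 had a higher and 3 a lower mean log2 level in SPI-24, with a median log2 fold change of 0.05. Uqcrb, a small subunit near the quinone site, was at 1117, 1033, 1289, 723 and 965 with DMSO and at 1113, 343, 847, 852 and 755 with SPI-24. SPI-24 replicate 2, one of the shallow libraries, was the lowest by far, and the other 4 lay inside the DMSO range. Uqcrb had a log2 fold change of -0.46 (95% interval -1.08 to 0.15, limma unadjusted p = 0.131). Uqcrh, the acidic hinge protein and the member of highest count in this complex, ranged from 10083 to 15053 with DMSO and from 9633 to 13641 with SPI-24. The small subunits Uqcr10, Uqcr11 and Uqcrq had log2 fold changes of 0.09, 0.08 and 0.07.

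Complex IV, cytochrome c oxidase, had 9 members with a higher and 10 with a lower mean log2 level in SPI-24, and a median log2 fold change of -0.01. Cox4i1, the ubiquitous form of subunit 4 and an abundant member, was at 43041, 47779.9, 34583, 25276 and 19500.3 normalized counts in DMSO replicates 1 to 5 and at 25115, 36117, 32879, 29794 and 33524 in SPI-24 replicates 1 to 5. The highest and the lowest values were both DMSO libraries, 2.45-fold apart. Cox4i1 had a log2 fold change of -0.05 (95% interval -0.61 to 0.52, limma unadjusted p = 0.862). Cox6a1, the ubiquitous form of subunit 6a, was at 14185, 17730.1, 14988, 13977 and 10950.3 with DMSO and at 17215, 21312, 16677, 15786 and 14257 with SPI-24. Cox6a1 had a log2 fold change of 0.25 (95% interval -0.14 to 0.64, limma unadjusted p = 0.19). Cox8a, the ubiquitous form of subunit 8, ranged from 7743 to 13409 with DMSO and from 11265 to 14354 with SPI-24. Cox8a had a log2 fold change of 0.24 (95% interval -0.13 to 0.61, limma unadjusted p = 0.191). Cox7a2l, which ties complexes III and IV into supercomplexes, had means of 3302 ± 847 with DMSO and 2723 ± 276 with SPI-24 (SD, n = 5). Cox7a2l had a log2 fold change of -0.25 (95% interval -0.63 to 0.13, limma unadjusted p = 0.181).

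Complex V makes ATP with its F1 head and lets protons through its Fo base. Of 15 members, 6 had a higher and 9 a lower mean log2 level in SPI-24, with a median log2 fold change of -0.03. Atp5b, the catalytic beta subunit, was the steadiest of the 74 abundant members, with 32564, 38349.6, 37436, 34843 and 31193 in DMSO replicates 1 to 5 and 40538, 35589, 35786, 34413 and 35730.2 in SPI-24 replicates 1 to 5. The highest library was 1.3-fold above the lowest. Atp5b had a log2 fold change of 0.06 (95% interval -0.36 to 0.49, limma unadjusted p = 0.751). Atp5a1, the alpha subunit, ranged from 18673 to 22411 with DMSO and from 16587 to 22978 with SPI-24. Atp5d, the delta subunit of the central stalk, was at 3504, 6409, 6142, 4322 and 5457 with DMSO and at 6642, 5628, 5664, 6848 and 5298 with SPI-24. Its lowest 2 values were DMSO replicates 1 and 4. Atp5d had a log2 fold change of 0.25 (95% interval -0.14 to 0.64, limma unadjusted p = 0.192). Atp5o, the subunit that joins the peripheral stalk to F1, had means of 5075 ± 655 with DMSO and 5737 ± 388 with SPI-24 (SD, n = 5).

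The 8 assembly factors build complex I and are not part of the finished enzyme. Of these, 4 had a higher and 4 a lower mean log2 level in SPI-24. Ndufaf3, needed early in assembly, ranged from 750.3 to 1145 normalized counts with DMSO and from 840.3 to 1299.7 with SPI-24. Ndufaf3 had a log2 fold change of 0.20 (95% interval -0.23 to 0.62, limma unadjusted p = 0.344). Ndufaf7, a mitochondrial methyltransferase, was at 819, 533, 749, 559 and 574 with DMSO and at 498, 1059.7, 463, 491 and 356 with SPI-24, where the shallow replicate 2 stood highest and the other 4 lay below every DMSO value. Ndufaf7 had a log2 fold change of -0.26 (95% interval -0.89 to 0.37, limma unadjusted p = 0.394). Ndufaf8 had the widest range of the abundant members, 6.06-fold, with its lowest value of 140.1 in the shallowest library, DMSO replicate 3. Ndufaf2 and Ndufaf5 had log2 fold changes of 0.24 and 0.07.

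Levels of different genes were compared per kilobase of annotated exon. Complex IV held the genes of highest level, with Cox6a1 at 22376 ± 3953 (SD, n = 10 libraries), Cox4i1 at 21136 ± 5464 and Cox8a at 18650 ± 3105 normalized counts per kilobase, 3 neighbours that did not differ beyond their spread. In complex I, Ndufa1, Ndufb9 and Ndufa13 led with 8291, 8190 and 8126, again within their spread. Uqcrh led complex III with 9683 ± 1480 and Atp5b led complex V with 8413 ± 639. In complex II, Sdha (2592), Sdhb (2487) and Sdhd (2276) were close together and Sdhc (932) stood below. The 8 assembly factors were at 132 to 690 normalized counts per kilobase, below the median of every complex (1501.4 to 2741). Per kilobase of the longest transcript, Ndufb9, Sdhb and Cox4i1 came first in place of Ndufa1, Sdha and Cox6a1.

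A few subunit genes had very low counts beside the others of their complex. Of 74 subunit genes, leaving out assembly factors, tissue isoforms and paralogues, and Atp5s, the 6 lowest lay between 1.35 and 213 normalized counts per kilobase, and the other 68 between 465 and 22376. They were Ndufs5, Ndufab1 and Ndufb4 of complex I, Cox7c of complex IV and Atp5l and Atp5g1 of complex V. Ndufs5, an accessory subunit, was listed at 0 in 9 libraries and at 11.6 in DMSO replicate 5, and was the member left out of the test. Atp5l, subunit g of Fo, was at 29.7, 48.0, 0, 37.0 and 3.63 in DMSO replicates 1 to 5 and at 52.3, 0, 10.1, 0 and 0 in SPI-24 replicates 1 to 5. Cox7c, a small subunit, was at 28.5, 30.2, 0, 0 and 30.2 with DMSO and at 43.8, 0, 44.6, 15.6 and 0 with SPI-24. Both had 4 libraries at 0, spread over the 2 groups.

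Most of these 6 genes had a feature of sequence in common. The authors discarded reads that map to several places, and reads were 50 bases long, so each 50-base window of the principal annotated transcript was looked up in all other annotated transcripts, on both strands, leaving out genes that overlap the member. In 5 of the 6, under 1% of the coding windows were found at no other locus: 0 of 260 in Atp5l, 0 of 140 in Cox7c, 0 of 338 in Ndufb4, 1 of 359 in Atp5g1 and 1 of 419 in Ndufab1. In Ndufs5 it was 74 of 269 (27.5%). Over the whole transcript, with its untranslated ends, the share was larger. It was 31.5% in Atp5l, 34.0% in Atp5g1, 47.0% in Cox7c, 58.8% in Ndufs5, 63.0% in Ndufb4 and 68.8% in Ndufab1. By this measure Atp5h had 33.4% at 1752 normalized counts per kilobase and Uqcrb 56.8% at 1032, while 54 of all members shared no window. Loci were counted by gene and transcript type, so a gene with transcripts of several types counts more than once. Counted in this way, pseudogenes made up 12 of the 13 loci that share windows with Atp5l, 3 of 4 for Cox7c, 3 of 3 for Ndufb4, 3 of 3 for Atp5g1 and the only one for Ndufs5, but 2 of 10 for Ndufab1. Among the other 68 subunits the lowest share of coding windows was 27.1%, in Uqcrb, and 40 had no copied coding window at all. Atp5s, coupling factor B, was kept apart from these 74 as a factor that is not a lasting subunit, and it goes against the pattern: at 181 normalized counts per kilobase it lay among the 6, with all 551 of its coding windows found at no other locus. To show what such a read looks like, the first coding window with most copies is given for 3 members. These were at 0 in several libraries, with a mean under 50 and at least some copied coding windows. Sequences run 5′ to 3′, from the GENCODE transcripts of GRCm38, with no base in capitals since the whole window is repeated.
Atp5l (gene at chr9:44912557-44920742, minus strand; found at 9 other loci): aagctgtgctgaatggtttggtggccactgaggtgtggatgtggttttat
Cox7c (gene at chr13:86044816-86046904, minus strand; found at 3 other loci): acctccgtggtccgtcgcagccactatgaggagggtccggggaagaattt
Ndufs5 (gene at chr4:123712710-123718202, minus strand; found at 1 other locus): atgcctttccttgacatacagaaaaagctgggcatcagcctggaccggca
The 3 loci counted for the Cox7c window bear only the names Gm10012 and Gm12338. A read from any of these windows matches its gene and the other loci equally well. The part of discarded reads in the low counts was not tested, because multi-mapped reads were not in the table. Copies outside the annotation were not searched. At ordinary levels, 7 of the other 68 subunits also had under 50% of their coding windows to themselves, such as Cox6c with 46.4% and 2942 normalized counts per kilobase. Uqcrb, with 27.1% and 1032 normalized counts per kilobase, had about the share of Ndufs5.

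**Figure D3:**
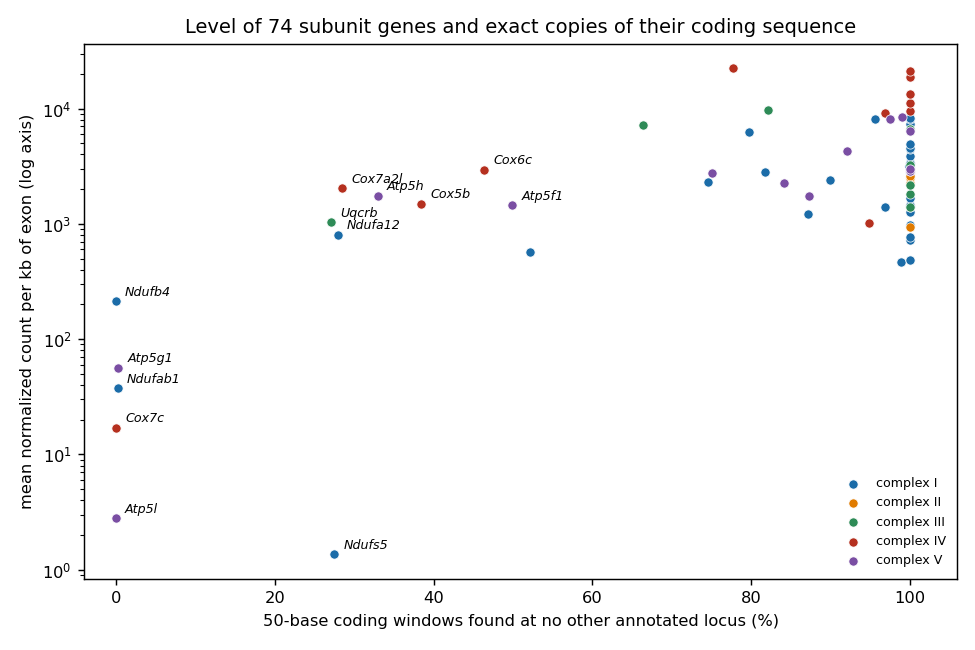
Mean normalized count per kilobase of exon (log axis) of 74 subunit genes, coloured by complex, against the percent of 50-base coding windows found at no other annotated locus. The 5 genes with under 1% lie between 2.80 and 213, Ndufs5 lies at 1.35, and the other 68 lie between 465 and 22376. Atp5s, at 181 with every coding window its own, is not plotted.

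Ndufb4, an accessory subunit of the membrane arm, had the most negative log2 fold change of all members. It was at 1024, 656, 263, 191 and 384 normalized counts in DMSO replicates 1 to 5 and at 335, 260.1, 504, 463 and 0 in SPI-24 replicates 1 to 5. Ndufb4 had a log2 fold change of -1.86 (95% interval -4.79 to 1.06, limma unadjusted p = 0.193). Without SPI-24 replicate 5, where it was listed at 0, its log2 fold change was -0.15. SPI-24 replicate 5 had 10124282 reads, and 33 genes were listed at 0 there although all 9 other libraries had at least 100 normalized counts. DMSO replicate 3 had 199 such genes and SPI-24 replicate 2 had 44, and there were 0 to 5 in each of the other 7 libraries. A 0 in a shallow library is therefore given here only as listed. Of the 90 members, 10 were listed at 0 in at least 1 library.

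Several subunits of complex IV, the Ndufa4 subunit and subunit c of complex V exist as 2 or more genes, of which some are known from certain tissues. In these libraries the ubiquitous form led in every family of complex IV subunits, and Ndufa4 led over Ndufa4l2. Atp5g2 of subunit c and Cox8c were not among the members. The forms known from heart and skeletal muscle, Cox6a2, Cox7a1 and Cox8b, were at 81.1, 263 and 264 normalized counts per kilobase, 276-fold, 42.7-fold and 70.6-fold below Cox6a1, Cox7a2 and Cox8a. The forms known from testis, Cox6b2 and Cox7b2, were 129-fold and 80.5-fold below Cox6b1 and Cox7b. Ndufa4l2, a form induced by low oxygen, was at 20.2, 39.4, 0, 0 and 4.72 in DMSO and at 0, 0, 107, 40.5 and 14.5 in SPI-24, at 0 in 4 libraries, and 461-fold below Ndufa4 per kilobase. Atp5g1 was 53.3-fold below Atp5g3, which codes for the same mature c subunit, but only Atp5g1 had its coding windows copied elsewhere.

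Cox4i2, the form of subunit 4 known from lung and from low oxygen, had the largest positive log2 fold change of all members. It was at 44.0, 35.5, 0, 72.6 and 37.1 normalized counts in DMSO replicates 1 to 5 and at 54.3, 119, 120.1, 133 and 74.5 in SPI-24 replicates 1 to 5. DMSO replicate 4 reached into the SPI-24 range, and DMSO replicate 3 was at 0. Cox4i2 had a log2 fold change of 2.16 (95% interval -0.44 to 4.76, limma unadjusted p = 0.0968). As a percent of Cox4i1 per kilobase, Cox4i2 lay between 0 and 0.565% with DMSO (median 0.201%) and between 0.425 and 0.881% with SPI-24 (median 0.648%). Without DMSO replicate 3 its log2 fold change was 1.05. In brain, Cox4i2 is known from pericytes, and the 10 mural cell markers deviated by 0.44, 0.82, -1.97, -0.40 and 0.53 on average (log2) in DMSO replicates 1 to 5 and by -0.22, -0.38, 0.92, 1.12 and -0.86 in SPI-24 replicates 1 to 5. Their part in the Cox4i2 values was not tested.

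The other forms did not separate the groups either. Cox6a2 was at 51.1, 64.4, 0, 40.9 and 20.4 with DMSO and at 23.5, 169, 20.1, 25.6 and 137 with SPI-24, with the 2 highest values in SPI-24 replicates 2 and 5, both among the 4 libraries rich in Drd1. Cox8b was at 316, 30.2, 0, 159 and 28.3 with DMSO and at 156, 136, 13.8, 29.1 and 82.8 with SPI-24, and its 2 highest values were DMSO replicates 1 and 4, the libraries of highest Ttr, a choroid plexus gene (181941 and 92837 normalized counts). DMSO replicates 1 and 4 were also rich in Drd1, but for Cox6a2 they lay below DMSO replicate 2, which was poor in Drd1. SPI-24 replicates 2 and 5 were also among the shallowest libraries. Cox7a1 ranged from 84.3 to 328 with DMSO and from 49.0 to 198 with SPI-24. Cox7b2 stayed at or below 66.2 in 9 libraries and reached 318 in DMSO replicate 3. Cox6b2 ranged from 0 to 257 with DMSO and from 51.5 to 160.5 with SPI-24. The parts of these cell types and of depth were not tested.

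**Figure D4:**
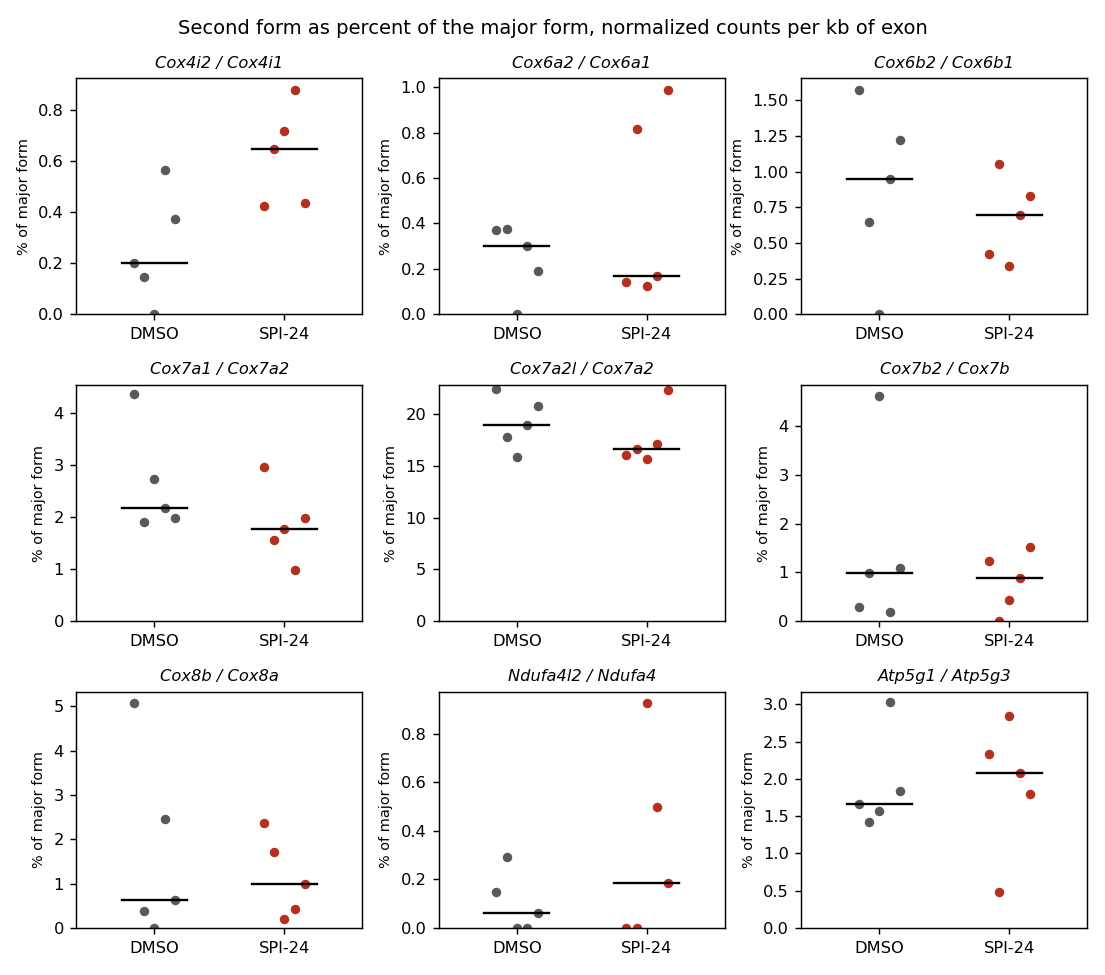
Level of the less abundant form as a percent of the more abundant form named after the slash, in normalized counts per kilobase of exon, for each library (points, 5 per group) with the group median (line). Each panel has its own axis from 0, the groups overlap in all 9 panels, and Cox4i2 has medians of 0.201% with DMSO and 0.648% with SPI-24.

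The members also varied from library to library. The median deviation of the 89 members from each gene's own mean (log2) was 0.22, 0.20, 0.01, -0.10 and -0.27 in DMSO replicates 1 to 5 and 0.13, 0.09, 0.03, -0.09 and -0.05 in SPI-24 replicates 1 to 5. DMSO libraries thus held both ends of the range, and the group means of this median were 0.01 and 0.02. DMSO replicate 5, the deepest library, had the lowest value of all 10 for 29 of the 74 abundant members and the highest for 0. Of all 6272 genes at that level, 7.84% were lowest and 5.88% highest there. This library was singled out after its values were seen. Against DMSO replicate 1, 67 of the 74 members were lower in DMSO replicate 5, with a median log2 ratio of -0.43, where the median over all genes at that level was -0.02.

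The pattern was widest in complex IV, by a median that weighs its scarce forms, some with values of 0, like its abundant genes. This median deviation was 0.43 at most and -0.42 at least, in DMSO replicates 1 and 5. No such median was taken over the abundant genes alone. Against 0.36 to 0.48 in the other 4 complexes, the span was 0.85 over all 19 complex IV genes. Their summed normalized counts were 146497, 155162, 128015, 108066 and 85332 in DMSO replicates 1 to 5 and 117239, 141556, 127343, 110209 and 111555 in SPI-24 replicates 1 to 5. Of its 11 abundant genes, 6 had their highest value in DMSO replicate 1 or 2 (Cox4i1, Cox6b1, Cox6c, Cox7a2, Cox7a2l and Ndufa4), and Cox5a, Cox5b, Cox6a1, Cox7b and Cox8a had it in another library. Complex V, with sums of 98723 to 127754, and complex II, with 19269 to 24548, varied less. All members together took 2.0 to 2.8% of the reads assigned to genes, 2.33% ± 0.28 (SD, n = 5) with DMSO and 2.28% ± 0.18 (SD, n = 5) with SPI-24. The medium spiny neuron markers had another order, with mean deviations of 3.43, -1.11, -3.42, 2.18 and -1.18 in DMSO replicates 1 to 5 and -1.52, 1.85, -1.51, -2.17 and 3.44 in SPI-24 replicates 1 to 5. With their mean level as a covariate, the median log2 fold change of the members was again 0.03 and 0 members had an unadjusted p under 0.05 by limma. With the choroid plexus level as a covariate it was 0.05, with 52 members higher in SPI-24 and again 0 under that p, and the log2 fold changes of Cox4i1 (0.02), Cox6b1 (0.03) and Cox7c (-0.40) changed sign.

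**Figure D5:**
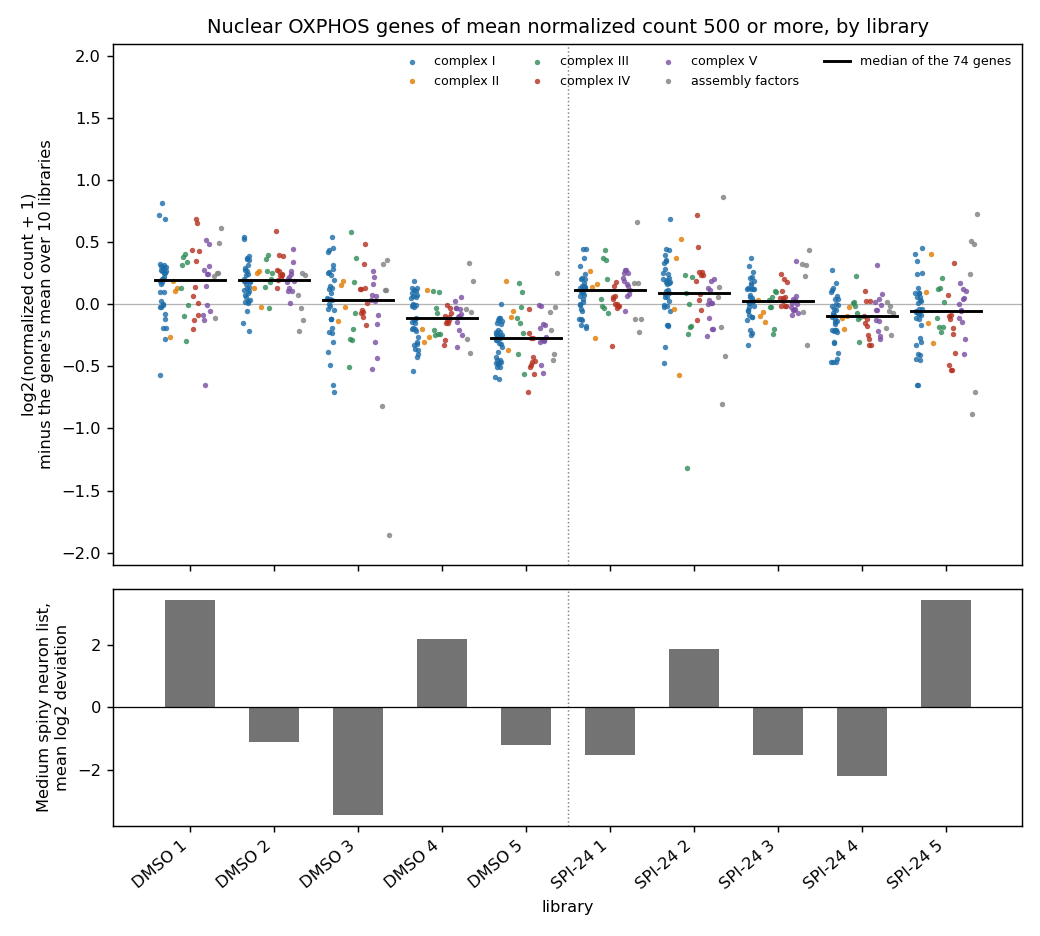
Upper panel, log2(normalized count + 1) minus the gene's mean over 10 libraries for the 74 members of mean 500 or more (points, coloured by complex), with their median in each library (black line). Lower panel, mean log2 deviation of 14 medium spiny neuron markers in the same libraries, which spans 6.85 where the median of all 89 members spans 0.49.

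Genes of the same pathway outside the naming rule gave 0 calls as well. The 7 mitochondrially encoded subunits in the table all had a higher mean log2 level in SPI-24, with a median log2 fold change of 0.11 and a median half-width of the 95% interval of 1.11. They took 16.7, 8.83, 11.9, 11.1 and 9.03% of reads in DMSO replicates 1 to 5 and 14.3, 14.9, 10.7, 9.60 and 11.7% in SPI-24 replicates 1 to 5, so that the groups overlapped. mt-Nd6 had means of 54787 ± 18960.0 with DMSO and 57891 ± 14630.0 with SPI-24 (SD, n = 5). mt-Nd1 had means of 530550.0 ± 219300.0 with DMSO and 606430.0 ± 158800.0 with SPI-24 (SD, n = 5). mt-Co1 had means of 381600.0 ± 121700.0 with DMSO and 426650.0 ± 76260.0 with SPI-24 (SD, n = 5). These subunits share the transcripts of a single small genome and are not independent of each other. Of 37 assembly factors beyond the Ndufaf genes, 17 had a higher mean in SPI-24, with a median log2 fold change of -0.01. Those with the smallest p were the copper chaperone Sco1 (mean 109.9 with DMSO and 236 with SPI-24, log2 fold change 2.42, limma unadjusted p = 0.0701), Coa7 (mean 251 with DMSO and 479 with SPI-24, log2 fold change 2.23, limma unadjusted p = 0.107) and the heme A enzyme Cox10 (mean 337 with DMSO and 545 with SPI-24, log2 fold change 0.60, limma unadjusted p = 0.156). For Sco1 and Coa7 the SD within groups was 2.30 and 2.65 on the log2 scale, and their means differ by less than the fitted fold change.

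Of 17 genes for electron carriers and quinone synthesis, 12 had a higher mean log2 level in SPI-24. Etfdh and Etfb, which feed electrons from fatty acid oxidation to ubiquinone, had log2 fold changes of -0.42 and -0.36, and Coq2, which joins the polyprenyl tail to the ring of ubiquinone, had 0.62. Of 17 citrate cycle and pyruvate dehydrogenase genes, 11 had a higher mean in SPI-24 and the median log2 fold change was 0.03. Mdh2, Ogdh and Dlat led this list with 0.28, 0.27 and 0.20. Of 16 glycolysis genes, 12 had a higher mean, with Ldha at -0.30, Pfkp at 0.29 and Aldoa at 0.24. In these lists 0 genes had an unadjusted p under 0.05 by limma.

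Of 12 transcription factors and coactivators that act on nuclear oxidative phosphorylation genes or on mitochondrial DNA, 6 had a higher and 6 a lower mean log2 level in SPI-24. Tfam, which packs and transcribes mitochondrial DNA, was at 929, 1031, 1299, 897 and 902 normalized counts in DMSO replicates 1 to 5 and at 874, 822, 821, 604 and 888 in SPI-24 replicates 1 to 5. All 5 SPI-24 values were below all 5 DMSO values, as in either direction for 0.517% of all genes. Its log2 fold change was -0.33, with an unadjusted p of 0.109 and an adjusted p of 0.999 by limma. Nrf1, an activator of many respiratory genes, had a log2 fold change of 0.65 and the nuclear receptor Esrra 0.20, and Ppargc1a, a coactivator of both, had 0.03. Over the 12 genes the log2 fold changes ran from -0.60 to 1.45.

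Motifs of these factors stood in a larger share of the members' promoters than of all promoters, as a count of letters with no test. RefSeq windows from 250 bases before to 50 bases after the start (GRCm38.p6) were matched by symbol for 73 of the 90 members, 78 windows in all. GCGCA, any base and GCGC, the core of the NRF1 motif, was found on either strand in 24.4% of the member windows and in 4.60% of all 32851 windows. AAGATGGC, the YY1 motif, was found in 12.8% against 2.75%. CCGGAAGT, an ETS motif read by the GABP proteins, was found in 6.41% against 3.89%, and TCAAGGTCA, the motif of Esrra, in 2.56% against 0.423%. The ETS and Esrra shares rest on only 5 and 2 member windows. The windows of all genes were not matched to those of the members by base composition or level. No motif contains another, and a match describes sequence alone. For each group, the member of highest level per kilobase with an NRF1 or ETS match before its RefSeq start was taken. By the GENCODE gene ends, the Ndufa8 stretch lies inside the gene and the Atp5k match reaches into it. On the gene's strand, 60 bases around the match are shown, with the motif in capitals (its reverse complement in Ndufa8 and Uqcrh).
Ndufa8 (complex I, chr2:36049339-36049398, minus strand): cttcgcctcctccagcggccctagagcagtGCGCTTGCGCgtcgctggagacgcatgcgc
Sdha (complex II, chr13:74350304-74350363, minus strand): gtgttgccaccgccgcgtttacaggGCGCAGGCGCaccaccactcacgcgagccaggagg
Uqcrh (complex III, chr4:116075071-116075130, minus strand): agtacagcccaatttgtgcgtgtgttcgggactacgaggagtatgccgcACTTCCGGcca
Cox6a1 (complex IV, chr5:115349086-115349145, minus strand): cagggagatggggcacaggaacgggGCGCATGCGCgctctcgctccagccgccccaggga
Atp5k (complex V, chr5:108434415-108434474, minus strand): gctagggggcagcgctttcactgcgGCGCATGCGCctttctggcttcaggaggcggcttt
Ndufaf4 (assembly factor, chr4:24897945-24898004, plus strand): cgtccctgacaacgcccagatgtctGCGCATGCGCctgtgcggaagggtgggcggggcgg
An NRF1 match was present in 7 of 32 complex I genes with a promoter window, 2 of 3 in complex II, 1 of 5 in complex III, 1 of 14 in complex IV, 5 of 12 in complex V and 2 of 7 assembly factors. Matches occurred in all 6 groups, and Cox6a1 was the only gene of complex IV with one.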

How the data were processed

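Striatal RNA was sequenced as stranded mRNA libraries with single reads of 50 bases. The authors trimmed reads with cutadapt, aligned them to GRCm38 with STAR, discarded multi-mapped reads, counted with htseq-count and normalized with DESeq2. Versions and the strand setting of counting were given in none of the sources. The values the authors deposited are a signal, read counts divided by a size factor for each library: 99.99% of the 154521 values above 0 came out as whole reads within 0.1 of a read. A pair of sequencing platforms are named in the methods, not which library ran on which, so whether platform differed between the groups is not known. The authors' own columns of fold changes, p-values, adjusted p-values and means were not used.

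Genes with a mean of at least 10 normalized counts were tested on log2(normalized count + 1) with limma 3.58.1 (trend, R 4.3.3), all 10 libraries, no covariates, Benjamini-Hochberg adjustment over 15871 genes, threshold 0.05. The pseudocount shrinks the fold change of low genes, while a single value of 0 can make it larger than the ratio of the means (as in Cox4i2 and Ndufb4) or give it another sign (Cox6b2). Whole reads were also tested with edgeR 4.0.16 and DESeq2 1.42.0. The scripts were tested on simulated data. Other alternatives were another pseudocount, filter and scaling, marker levels as covariates, a replicate block, leaving out each library and, added after seeing the data, only the 7 libraries of more than 11 M reads.

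Members and lists were chosen with earlier results of these data known. Named members are, for each complex and the assembly factors, up to 4 of smallest limma p and the 2 of highest mean. Any with groups that do not overlap or an unadjusted p under 0.05 were added. So were the isoform families and members with reads in fewer than 10 libraries. Other pathway lists give up to 3 of smallest p, except that 4 transcription factors are named, more than this rule gives. The scarce members and single libraries described were chosen after their values were seen. Lengths and transcripts came from the GENCODE annotation of GRCm38 and promoters from RefSeq (GRCm38.p6).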

Additional observations from a re-analysis of the deposited data

Results flagged for a closer look

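In 10 of 105 groups of 5 libraries, 1 library stood far from the other 4 (Dixon's gap test, critical value 0.71), where chance gives about 1 in 20. Among subunits, Atp5b was at 40537.6 normalized counts in SPI-24 replicate 1 (next 35786.5), and the complex V sum reached 127754 there (next 113991). Atp5l was at 52.31 in the same library (next 10.06). Atp5g1 was at 420.1 in DMSO replicate 4 (next 246). Ndufa10 was at 4963.6 in SPI-24 replicate 2 (next 4565.6), and Ndufs1 at 5564.4 in DMSO replicate 3 (next 4111.6). Cox7b2 was at 317.87 in DMSO replicate 3 (next 57.8), and Ndufs5 at 11.63 in DMSO replicate 5 (0 in the others). Of the assembly factors, Ndufaf3 was at 1145.0 in DMSO replicate 3 (next 845) and Ndufaf7 at 1059.7 in SPI-24 replicate 2 (next 498). DMSO replicate 3 and SPI-24 replicate 2 were the libraries of fewest reads.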

How the results depend on the processing

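The number of members called was 0 under every alternative run. Over all genes, limma and edgeR called 0 in each setting, DESeq2 called 3 with its defaults and 17 without outlier replacement and independent filtering, none of them members. At an unadjusted p under 0.05 there were 354 genes by limma, 377 by edgeR with the authors' size factors, 367 by edgeR with TMM, 406 and 490 by DESeq2, 556 without DMSO replicate 3 and 930 among libraries above 11 M reads. Leaving out 1 library at a time, the members of higher mean in SPI-24 numbered 34 to 55 and their median log2 fold change ran from -0.06 to 0.08, so its direction rests on single libraries. With a replicate block, 0 genes were called, 316 had an unadjusted p under 0.05 and the median stayed at 0.03. After each gene's group mean was subtracted, the log2 values of libraries of the same number correlated at -0.127 to -0.011. These values gave no sign that the numbers pair the libraries, and the block changed no call. In 6 settings 1 member had an unadjusted p under 0.05 by limma, with adjusted p-values of 0.836 to 1. These were Ndufv3 without DMSO replicate 1, DMSO replicate 2 or SPI-24 replicate 1, Ndufa10 without DMSO replicate 3, Sdhc without SPI-24 replicate 5 (log2 fold change -0.37) and Cox6b2 among libraries above 11 M reads (-1.19, against 0.67 with all 10). Cox6a2 had a log2 fold change of 1.34, and of -0.80 among libraries above 11 M reads, where 10 named members in all changed sign. Per kilobase of the longest transcript, the medians of complexes I to V were 2853, 2982, 3170, 2669 and 3965. Depth limits the scarce members: in the shallowest library 3 reads equal 10.2 normalized counts.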
